A study of Rattus norvegicus with 183 samples.

Results

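Slc6a3 encodes the dopamine transporter, the membrane protein that carries released dopamine back into the neuron. It is described here as 1 gene of the 38354 in an expression table of the rat posterior ventral tegmental area. It was chosen by name on measured values of this table: its spread between libraries, its fit to other dopamine genes, and the genes that correlate with it once the vesicular transporter gene Slc18a2 is taken out. Those values are therefore given below as description with no test. The libraries were made from polyA RNA of outbred heterogeneous stock rats, and no label gives a treatment, sex, age or sequencing batch. The format of the library identifier is the only label that divides them: 88 libraries have a hexadecimal identifier, 63 a decimal one and 1 another form. Notes in the labels mark 5 libraries as relabelled and 12 as recovered from an unknown label. Another 31 samples are labelled as removed and were not analysed here. The labels do not say what the identifier format stands for, nor whether the libraries come from separate animals, so p-values measure only the spread between these libraries, which may be technical.

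Dopamine neurons make dopamine with tyrosine hydroxylase (Th) and aromatic amino acid decarboxylase (Ddc) and load it into vesicles with the vesicular monoamine transporter (Slc18a2). The plasma membrane transporter ends the signal by taking dopamine up again, and it is the target of cocaine, amphetamine and methylphenidate. Midbrain dopamine neurons differ in how much of the transporter they make, with more in the substantia nigra than in medial parts of the ventral tegmental area. In bulk tissue a lower value can mean fewer dopamine neurons or less Slc6a3 RNA per neuron, and these cannot be told apart.

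Levels are given as estimated counts scaled to a library total of 1000000 (CPM), and spreads, differences and correlations on the log2(CPM + 1) scale. The libraries held 15.2 to 57.2 M estimated counts, with a median of 24.3 M (M, 1000000 counts). Th was at least 577 CPM in 141 libraries (87 hexadecimal, 53 decimal and the other form) and at most 3.47 CPM in the other 11, with none between; a level of 10 CPM was used to separate them. In the 11 libraries lacking Th, Slc6a3 had 0 to 3 estimated counts (0 to 0.121 CPM), at or under the 3 counts that a count of 0 allows. The same 11 libraries had 1833 to 2040 CPM of Slc17a7, the vesicular glutamate transporter gene of cortical neurons, and 1 of them is hexadecimal and 10 are decimal. They were left out of every fit below. In the libraries with Th, Slc6a3 rested on at least 1040 estimated counts, so counting error does not set the spread described here.

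The gene lies on chromosome 1 of GRCr8, from 31537990 to 31578962 on the minus strand, and spans 40973 bases. Its 3′ end overlaps an annotated long non-coding RNA on the other strand, LOC134484979, whose median level was 0.136 CPM in hexadecimal and 0.144 CPM in decimal libraries with Th. The sources used here do not say whether counting used strand, so reads of the overlap may be shared. The promoter stretches of Slc6a3 and Slc18a2 are shown because the level of the first is read against that of the second throughout. Each runs from 250 bases before to 50 after the annotated start (RefSeq, GRCr8), at chr1:31578913-31579212 on the minus strand for Slc6a3 and chr1:268399771-268400070 on the plus strand for Slc18a2. Capitals mark the GC box GGGCGG or its reverse complement.
Slc6a3: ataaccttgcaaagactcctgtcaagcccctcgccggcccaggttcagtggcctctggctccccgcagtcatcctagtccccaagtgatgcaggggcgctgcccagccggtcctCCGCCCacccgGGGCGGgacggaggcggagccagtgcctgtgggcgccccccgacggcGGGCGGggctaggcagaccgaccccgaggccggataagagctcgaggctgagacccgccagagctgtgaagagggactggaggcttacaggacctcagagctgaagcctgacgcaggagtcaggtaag
Slc18a2: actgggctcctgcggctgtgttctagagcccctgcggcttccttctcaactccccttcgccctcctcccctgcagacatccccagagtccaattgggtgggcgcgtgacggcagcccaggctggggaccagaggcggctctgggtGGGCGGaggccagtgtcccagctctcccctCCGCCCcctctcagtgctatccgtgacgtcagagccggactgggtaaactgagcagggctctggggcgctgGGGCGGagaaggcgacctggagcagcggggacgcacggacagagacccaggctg
Both stretches hold 3 GC boxes, 2 on the gene's strand and 1 on the other, a motif found on either strand in 34.9% of the 27457 promoters of the RefSeq table. Neither holds TATAAA, found in 14.3% of promoters, nor AAAGGTCA, the element bound by the orphan nuclear receptor family of Nr4a2, found in 1.29%. Their GC contents were 68% for Slc6a3 and 68.3% for Slc18a2, against a median of 52.3% over all promoters.

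Slc6a3 had nearly the same median in hexadecimal and decimal libraries, but the hexadecimal libraries reached far lower. In the 87 hexadecimal libraries with Th it ran from 38.2 to 1491 CPM, with a median of 779.6 and quartiles of 482 and 1096 CPM. In the 53 decimal libraries with Th it ran from 246 to 1222 CPM, with a median of 774 and quartiles of 600.5 and 947 CPM. The ranges overlap over most of their length, and 6 hexadecimal libraries but 0 decimal ones lay below 200 CPM. Those 6 had 1977 to 3934 CPM of Th, so they were not short of the synthesis enzyme's transcript. Below 300 CPM there were 12 hexadecimal libraries and 2 decimal ones, the decimal pair with 604 and 647 CPM of Th.

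**Figure D1:**
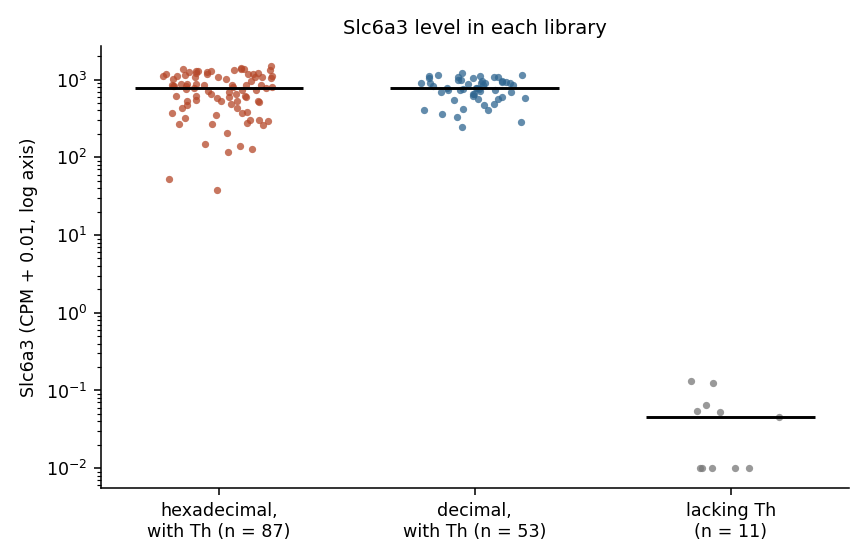
Slc6a3 level of each library on a log axis (CPM + 0.01), with points for libraries and bars for medians, for hexadecimal and decimal libraries with Th and for the 11 libraries lacking Th. The hexadecimal points reach down to 38.2 CPM and the decimal points to 246 CPM, while the libraries lacking Th lie at or below 0.121 CPM.

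The spread of Slc6a3 was an SD of 1.05 log2 units in hexadecimal and 0.54 in decimal libraries. This exceeded the SD of 98.7% of the 15536 genes fitted in hexadecimal libraries and of 95.4% in decimal ones, where the median gene had 0.27 and 0.21. Among the 200 genes nearest in mean level, 99.5% had a smaller SD in hexadecimal and 95% in decimal libraries. For Th the SD was 0.51 in hexadecimal and 0.49 in decimal libraries, and for Slc18a2 it was 0.47 and 0.49 in the same order. The SD of Slc6a3 was 1.92 times as large in hexadecimal as in decimal libraries, a ratio above that of 90.9% of genes (median gene 1.25). Of the 34 dopamine neuron genes compared, the synaptic vesicle gene Sv2c (ratio 2.39) and the muscarinic receptor gene Chrm5 (2.36) had a larger ratio, and the neurokinin B receptor gene Tacr3 had 1.89.

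The mean level did not pass a test between the formats. Slc6a3 averaged 9.31 log2 units in hexadecimal and 9.51 in decimal libraries, a difference of -0.20 ± 0.15 (hexadecimal minus decimal, SE, n = 87 and 53; limma, Benjamini-Hochberg adjusted p = 0.310 over all genes). Its 95% interval ran from -0.50 to 0.10. With Slc18a2 held equal the difference was -0.33 ± 0.11 (SE), which is described only, since the fit of Slc6a3 given Slc18a2 helped choose the gene. In the same limma fit 14.3% of all genes were higher in hexadecimal libraries and 23.8% lower (2215 and 3692 genes; 2854 and 2960 with median-of-ratios scaling). Of the 34 dopamine neuron genes 7 were higher and 3 lower. Th rose by 0.33 ± 0.09 (limma adjusted p = 0.00168) and the autoreceptor gene Drd2 by 0.24 ± 0.07 (limma adjusted p = 0.00324). The other 5 higher genes were Slc10a4, Dlk1, Pitx3, En1 and Spr, by 0.08 to 0.27. The 3 lower genes were Sv2c at -0.66 ± 0.21, Chrm5 at -0.54 ± 0.18 and Tacr3 at -0.42 ± 0.16 (limma adjusted p = 0.00800, 0.0130 and 0.0356), the same 3 whose spread ratio lay nearest to or above that of Slc6a3. With the 11 libraries lacking Th included, the difference for Slc6a3 was 1.2 (limma adjusted p = 0.0115), because 10 of those 11 are decimal.

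In decimal libraries Slc6a3 followed the synthesis and storage genes closely, and in hexadecimal libraries it did not. Its Pearson r with Th was -0.03 in hexadecimal and 0.91 in decimal libraries. With Ddc it was 0.28 in hexadecimal and 0.80 in decimal libraries, with Slc18a2 0.65 and 0.94, and with Slc10a4, a transporter gene of monoamine vesicles, 0.31 and 0.90. Gch1, which starts the synthesis of tetrahydrobiopterin, was an exception with 0.84 in hexadecimal and 0.81 in decimal libraries. Among the other genes for making or recycling tetrahydrobiopterin, Qdpr had -0.65 and -0.29, Spr -0.01 and 0.30, and Pts 0.26 and 0.17, in the same order.

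The transcription factor genes of midbrain dopamine neurons split in the same way. In hexadecimal libraries r was -0.17 for En1, 0.07 for Pitx3 and 0.07 for Foxa2, against 0.73, 0.85 and 0.57 in decimal libraries. Lmx1b (0.81 in hexadecimal and 0.88 in decimal libraries), Bnc2 (0.73 and 0.82) and Nr4a2 (0.65 and 0.77) stayed closer between the formats. Sox6, a factor of ventral tier dopamine neurons, had 0.64 in hexadecimal and -0.03 in decimal libraries.

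Among receptor and signalling genes of dopamine neurons, Chrna6 tracked Slc6a3 in both formats. Chrna6 encodes a nicotinic acetylcholine receptor subunit of these neurons, and its r with Slc6a3 was 0.96 in hexadecimal and 0.96 in decimal libraries, the highest of all genes in each. Its partner subunit gene Chrnb3 had 0.80 in hexadecimal and 0.94 in decimal libraries, and the GDNF receptor genes Gfra1 and Ret had 0.82 and 0.75 in hexadecimal and 0.93 and 0.90 in decimal libraries. Drd2 had 0.27 in hexadecimal and 0.92 in decimal libraries, and Dlk1, an imprinted gene, 0.56 and 0.96. Over the 34 genes the median r was 0.60 in hexadecimal and 0.80 in decimal libraries, and 26 of the 34 were lower in hexadecimal libraries. Over all genes the median r was 0.22 in hexadecimal and 0.02 in decimal libraries. By rank, Slc18a2 stood in place 2197 among all genes in hexadecimal and in place 5 in decimal libraries, and Th in place 10266 and 13. The difference between the formats was not tested, since these fits chose the gene.

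**Figure D2:**
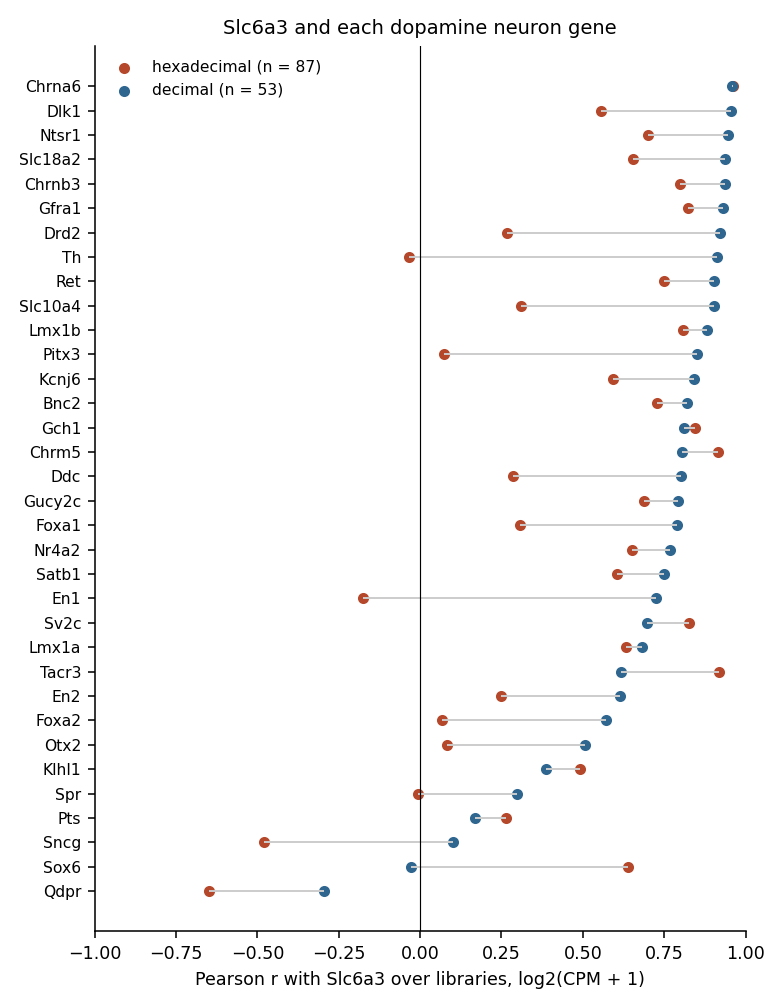
Pearson r of Slc6a3 with each of 34 dopamine neuron genes over the 87 hexadecimal (red) and 53 decimal (blue) libraries with Th, ordered by the decimal value, with grey lines joining the pair of a gene. Chrna6 lies at 0.96 in both formats, while Th lies at -0.03 in hexadecimal and 0.91 in decimal libraries.

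The slope of Slc6a3 on Slc18a2 was 1.46 log2 units per log2 unit in hexadecimal libraries, with a residual SD of 0.80, and 1.05 in decimal libraries, with a residual SD of 0.19. Against Chrna6 the slope was 1.38 with a residual SD of 0.29 in hexadecimal and 1.09 with a residual SD of 0.16 in decimal libraries. The ratio of Slc6a3 CPM to Slc18a2 CPM within a library ran from 0.0994 to 1.64 in hexadecimal libraries (quartiles 0.878 and 1.25) and from 0.831 to 1.5 in decimal ones (quartiles 1.01 and 1.21). This ratio mixes transcripts of unequal length, so its size carries no meaning, only its change between libraries. The upper ends of the formats are close, and only the hexadecimal libraries extend to low ratios.

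**Figure D3:**
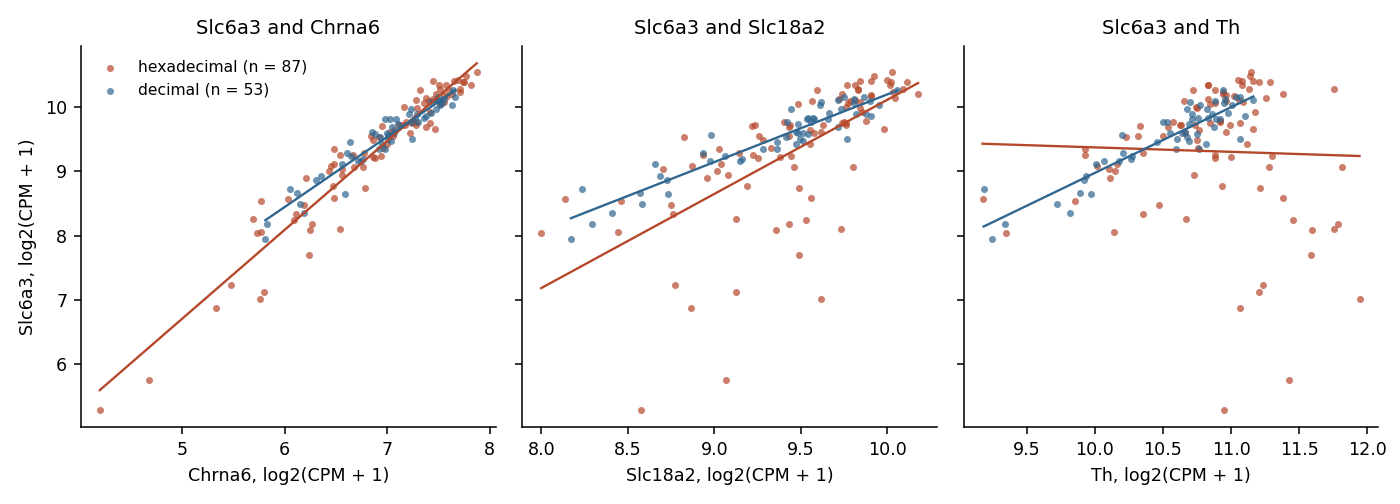
Slc6a3 against Chrna6, Slc18a2 and Th, all as log2(CPM + 1), with points for hexadecimal (red, n = 87) and decimal (blue, n = 53) libraries with Th and least-squares lines per format. The hexadecimal points fall along 1 line with Chrna6 (r = 0.96) and scatter far below the decimal points at high Th (r = -0.03).

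The 10 libraries with the lowest Slc6a3 for their Slc18a2 were all hexadecimal. In hexadecimal library 76 Slc6a3 was 53.2 CPM beside 535 CPM of Slc18a2, 2751 CPM of Th and 24.5 CPM of Chrna6. In hexadecimal library 7 it was 38.2 CPM beside 380.1 CPM of Slc18a2, 1977 CPM of Th and 17.3 CPM of Chrna6. In hexadecimal library 75 it was 129 CPM beside 786 CPM of Slc18a2, 3934 CPM of Th and 53.2 CPM of Chrna6. Their residuals from a fit on Slc18a2 and format were -3.05, -2.87 and -2.51 log2 units. Chrna6 was low in all 3, while Th was above the hexadecimal median of 1935 CPM in each. Hexadecimal libraries 43, 4, 64 and 62 followed with residuals of -1.76, -1.67, -1.66 and -1.56, and libraries 31, 28 and 6 with -1.19, -1.16 and -1.10. Just outside these 10, hexadecimal library 34 had -1.10, and the lowest decimal library, number 6, had -0.55. The zinc finger gene Zfp532 stood at 26028, 63010 and 15619 CPM in hexadecimal libraries 76, 7 and 4 and at 1076 to 2083 CPM in the other 7; it ran from 438 to 83157 CPM over all libraries with Th, and was named after its values were seen. Of the 10, only hexadecimal library 43 carries a note of relabelling, and it had 293 CPM of Slc17a7. At the other end, hexadecimal library 41 had the highest residual, 1.04, with 741 CPM of Slc6a3 beside 453 CPM of Slc18a2.

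Without these 10 libraries the SD of Slc6a3 in hexadecimal libraries was 0.65, its r with Slc18a2 was 0.82 and its r with Th was 0.45. The residual SD around Slc18a2 was then 0.38, against 0.19 in decimal libraries. These 10 were picked for their low residuals, so a smaller SD and a higher r with Slc18a2 without them follow from the choice, and no decimal libraries were left out to match.

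Libraries recovered from an unknown label did not pass a test of difference from the other hexadecimal libraries. Slc6a3 ran from 473 to 1145 CPM (median 869) in the 11 recovered hexadecimal libraries with Th, and from 38.2 to 1491 CPM (median 772) in the 75 hexadecimal libraries that carry no note. The means differed by 0.37 log2 units (9.66 ± 0.47 in recovered and 9.29 ± 1.08 in other libraries, SD; two-sided permutation test, p = 0.273). The residual from a fit on Slc18a2 over only these recovered and other libraries, described with no test, averaged 0.23 ± 0.27 in recovered and -0.03 ± 0.82 in other libraries (SD).

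In hexadecimal libraries the Slc6a3 residual was lower where a few genes held more of the counts. For every r and rho within a format, here and below, the residual is what a linear fit of Slc6a3 on Slc18a2 within that format leaves. The residuals of single libraries above, and any r over both formats, come instead from a joint fit on Slc18a2 and format. Since such fits helped choose the gene, the r and rho of the residual with 4 library measures are given with no test. With the share of counts held by the 20 most abundant genes, r was -0.70 and rho -0.53 in the 87 hexadecimal libraries, and -0.40 and -0.37 in the 53 decimal libraries. Without the 2 libraries farthest from the median share, r was -0.58 in hexadecimal and -0.19 in decimal libraries. The size of the decimal r thus depends on 2 libraries, while the decimal rho of -0.37, which extreme values sway less, was taken over all 53. With the share of ribosomal RNA genes, whose counts are uncertain because they have near-identical copies, r was -0.48 and rho -0.36 in hexadecimal and -0.21 and -0.18 in decimal libraries. Without the 2 farthest libraries these r values were -0.50 and 0.05.

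For the number of genes with at least 1 count, r with the Slc6a3 residual was 0.41 and rho 0.25 in hexadecimal libraries, with r = 0.29 without the 2 farthest. In decimal libraries r was -0.03 and rho -0.19, with r = -0.30 without the 2 farthest. The total estimated count on a log2 scale gave r = 0.08 and rho = 0.22 in hexadecimal libraries and r = -0.41 and rho = -0.34 in decimal libraries, and without the 2 farthest r was 0.29 and -0.32. The differences between the formats carry no test either.

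A large part of the transcriptome varied along with the Slc6a3 residual in hexadecimal libraries. Once Slc18a2 was taken out of both genes, 4246 of 15534 genes had a partial r of at least 0.5 with Slc6a3 in hexadecimal libraries (27.3%) and 1752 a partial r of at most -0.5 (11.3%). In decimal libraries 518 genes (3.33%) and 146 genes (0.94%) did so. With median-of-ratios scaling the counts were 2855 and 2950 in hexadecimal and 358 and 220 in decimal libraries, so the balance between positive and negative genes depends on the scaling. The median partial r over all genes was 0.22 in hexadecimal and 0.02 in decimal libraries. A correlation with 87 or 53 libraries shares its library, depth and total across all genes, and these counts are a description.

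The leading component of the genes outside all lists, computed within each format, took up 39.0% of the variance in hexadecimal and 23.4% in decimal libraries. In hexadecimal libraries it had r = 0.78 with Slc6a3, 0.70 with Chrna6, 0.35 with Slc18a2 and -0.37 with Th, and r = 0.63 with the number of genes detected. In decimal libraries it had r = 0.18 with Slc6a3, 0.19 with Chrna6, 0.24 with Slc18a2 and 0.17 with Th, and r = 0.01 with the number of genes detected. The sign of each component was set to give a positive r with the number of genes detected. That r was only 0.01 in decimal libraries, so the direction of the decimal component is arbitrary. Its signs cannot be set against the hexadecimal ones. With this component taken out, the r of Slc6a3 in hexadecimal libraries was 0.44 with Th, 0.49 with Ddc, 0.65 with Slc18a2, 0.64 with Slc10a4, 0.63 with Drd2 and 0.93 with Chrna6. With the component and Slc18a2 taken out, partial r was at least 0.5 for 8.39% and at most -0.5 for 3.57% of genes in hexadecimal libraries, and for 5.28% and 1.33% in decimal libraries. This component was added after the data were seen.

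**Figure D4:**
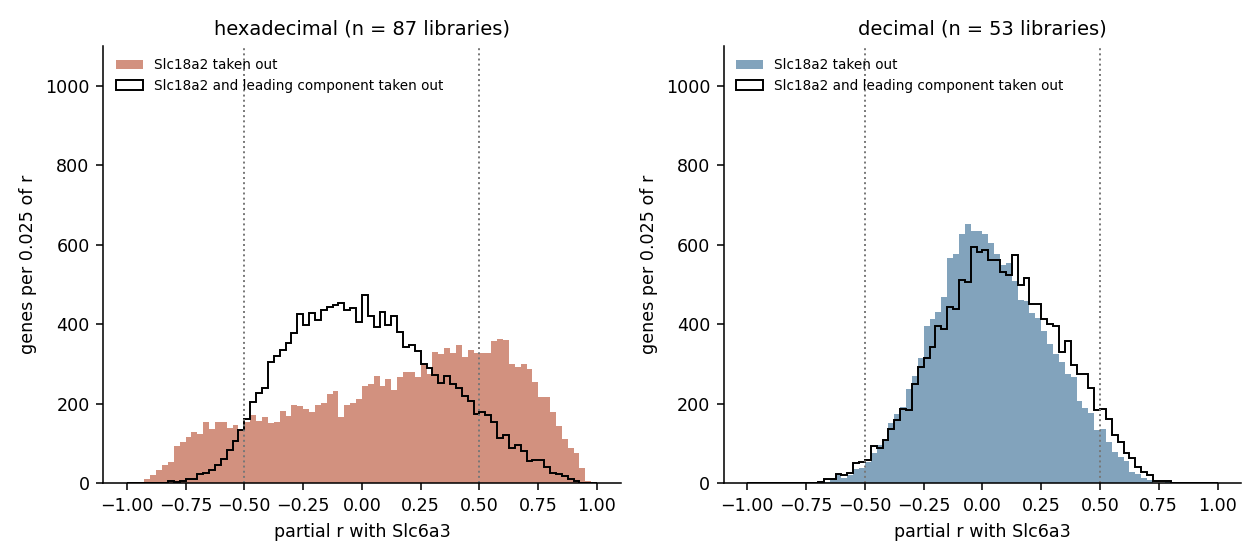
Number of genes at each partial r with Slc6a3 (bins of 0.025) in hexadecimal (left) and decimal (right) libraries, filled with Slc18a2 taken out and outlined with Slc18a2 and the leading component taken out, with dotted lines at 0.5 and -0.5. The filled hexadecimal curve is broad, with 27.3% of genes at or above 0.5, and the decimal curve is narrow, with 3.33%.

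The genes were named by the highest and lowest pooled partial r among those with a mean of at least 2 log2 units and a partial r of the same sign and at least 0.2 in size in both formats, which 3388 of 13215 genes had. The positive end was led by Cs, the citrate synthase gene, with a partial r of 0.96 in hexadecimal and 0.68 in decimal libraries. Next came Ip6k1, an inositol phosphate kinase gene (0.96 in hexadecimal and 0.57 in decimal libraries), Smim10l1 (0.95 and 0.68), Actr2, a subunit gene of the actin-nucleating Arp2/3 complex (0.95 and 0.59), and the autophagy gene Atg13 (0.95 and 0.59). Tspyl4, Chrna6, Gnl3l, the exocyst gene Exoc8, Pcyox1, the chaperone gene Hsp90aa1, the glycosyltransferase gene Mgat3, the endosomal recycling gene Ehd3 and the G protein gene Gna11 followed, with 0.94 to 0.96 in hexadecimal and 0.22 to 0.67 in decimal libraries. Apart from Chrna6, none of the 15 genes at this end is on a dopamine list. Their plain r with Slc6a3 in decimal libraries was 0.02 for Cs and 0.96 for Chrna6.

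At the negative end Ptms, the parathymosin gene, had a partial r of -0.93 in hexadecimal and -0.33 in decimal libraries. Csl1, annotated as a long non-coding RNA, had -0.93 in hexadecimal and -0.25 in decimal libraries, Pigh, which acts in glycolipid anchor synthesis, -0.91 and -0.37, and the profilin gene Pfn1 -0.91 and -0.35. En1, the only dopamine gene among these 15, had -0.92 in hexadecimal and -0.38 in decimal libraries. The others were Pabpn1, whose protein binds poly(A) tails in the nucleus, Rad52, Lsm12, Rnf5, Pianp, Rnasek, LOC103691621, LOC100912402, LOC120095197 and LOC134485661, with -0.92 to -0.87 in hexadecimal and -0.67 to -0.22 in decimal libraries.

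The genes most like Slc6a3 without any adjustment, by r over the 140 libraries centred within format, were led by Chrna6. After it came Ankrd34b (0.95 in hexadecimal and 0.93 in decimal libraries), the solute carrier gene Slc35e3 (0.95 and 0.70), Chrm5 (0.92 and 0.80) and the phosphatidylinositol kinase gene Pi4kb (0.91 and 0.83). Gpr161, an orphan receptor gene, had 0.89 in hexadecimal and 0.95 in decimal libraries. Timp2 (0.92 and 0.71), Ntn4 (0.92 and 0.65), Asb4 (0.91 and 0.75) and the monoamine oxidase gene Maoa (0.94 and 0.58) complete the 10.

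In hexadecimal libraries long genes tended to a higher partial r than short genes, with genes of both kinds at each end. Of 3424 protein-coding genes spanning under 10 kb, 13.2% had a partial r of at least 0.5 and 25.0% one of at most -0.5, with a median of -0.13. Of 2288 genes spanning over 100 kb, 44.4% had a partial r of at least 0.5 and 2.45% one of at most -0.5, with a median of 0.46. In decimal libraries the medians were -0.02 for the short and 0.11 for the long genes. Across the 14324 protein-coding genes the rank correlation of partial r with span was 0.37 in hexadecimal and 0.15 in decimal libraries, with genes as points that share the same libraries. The percent of protein-coding counts from genes under 10 kb ran from 21.0 to 28.2 in hexadecimal and from 20.6 to 26.5 in decimal libraries, and its r with the Slc6a3 residual was -0.74 in hexadecimal and -0.15 in decimal libraries. In hexadecimal libraries 76, 7 and 75 it was 27.8%, 26.6% and 28.2%. For the percent from genes over 100 kb, r with the residual was smaller, at 0.37 in hexadecimal and -0.22 in decimal libraries, and hexadecimal library 7, at 21.4%, lay near the hexadecimal maximum of 21.7%. The leading component had r = -0.89 with the percent from genes under 10 kb in hexadecimal and -0.03 in decimal libraries. The part of this shift between long and short genes in the Slc6a3 values was not tested.

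**Figure D5:**
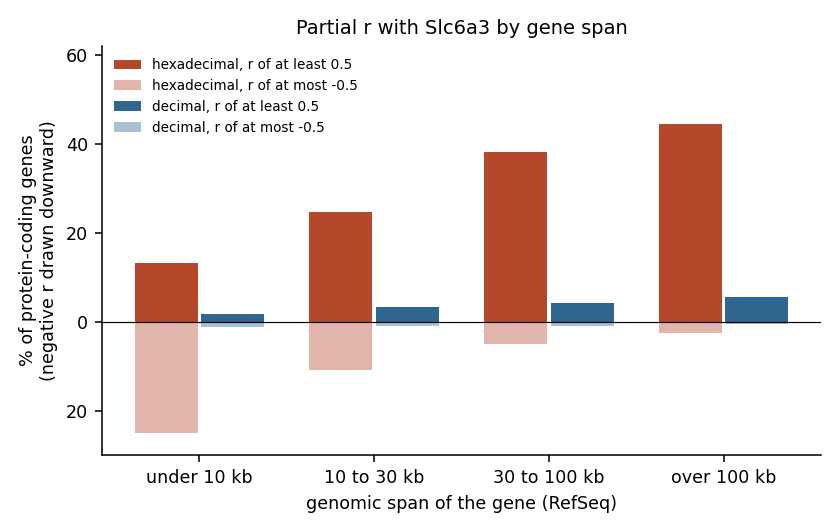
Percent of protein-coding genes with a partial r of at least 0.5 with Slc6a3 (upward) and of at most -0.5 (downward, pale) by genomic span, for hexadecimal (red, left of each pair) and decimal (blue) libraries. In hexadecimal libraries the upward bars grow from 13.2% to 44.4% with span and the downward bars shrink from 25.0% to 2.45%.

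Proteins reported to bind or regulate the transporter did not share a direction. Of 20 genes, 4 had a partial r of at least 0.5 in hexadecimal libraries and 4 one of at most -0.5, with a median of 0.01, beside 27.3% and 11.3% of all genes. In decimal libraries 0 of the 20 reached either bound, with a median of 0.05, beside 3.33% and 0.94% of all genes. The scaffold gene Pick1 had a partial r of 0.68 and the kinase gene Prkca 0.65 in hexadecimal libraries, against 0.26 and 0.04 in decimal libraries. The syntaxin gene Stx1a had -0.53 in hexadecimal and -0.07 in decimal libraries. Without adjustment, the r of Slc6a3 was 0.22 with the small GTPase gene Rit2 and 0.14 with the vesicle gene Syngr3 in hexadecimal libraries, against 0.78 and 0.77 in decimal libraries.

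Of the SLC6 transporter family, 11 other members passed the filter on low levels. Slc6a11, a GABA transporter gene, had a partial r of 0.92 in hexadecimal and 0.52 in decimal libraries, the proline transporter gene Slc6a7 0.83 and 0.45, and the glycine transporter gene Slc6a9 -0.54 and -0.12. In hexadecimal libraries 4 of the 11 had at least 0.5 and 1 at most -0.5, and in decimal libraries 1 and 0, beside 27.3% and 11.3% of all genes in hexadecimal and 3.33% and 0.94% in decimal libraries. The noradrenaline transporter gene Slc6a2 had a median of 0.0562 CPM and was under the filter, as were the noradrenaline neuron genes Dbh and Phox2a. The serotonin transporter gene Slc6a4 had a partial r of -0.12 in hexadecimal and -0.44 in decimal libraries.

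The lists of dopamine neuron subtype genes held members of both signs. Of 11 lateral tier or nigral genes, 3 had a partial r of at least 0.5 and 0 one of at most -0.5 in hexadecimal libraries (median 0.40), a share near the 27.3% of all genes at or above 0.5. In decimal libraries 1 and 0 of the 11 did so (median 0.15). Ndnf, a secreted factor gene, had a partial r of 0.67 in hexadecimal and 0.58 in decimal libraries, and the calcitonin receptor gene Calcr 0.04 and -0.47. Of 14 medial tegmental genes, 1 had at least 0.5 and 3 at most -0.5 in hexadecimal libraries (median -0.21), against 0 and 0 in decimal libraries (median -0.23). For both lists the shares over all genes were 27.3% and 11.3% in hexadecimal and 3.33% and 0.94% in decimal libraries. Cbln4, a synapse organiser gene, had -0.63 in hexadecimal and -0.49 in decimal libraries, the calbindin gene Calb1 -0.35 and -0.49, and the cholecystokinin gene Cck -0.79 and -0.10. The Tacr3 gene, on the same list, had 0.87 in hexadecimal and -0.24 in decimal libraries. Beside these medians stand 0.22 in hexadecimal and 0.02 in decimal libraries over all genes. With the leading component also taken out, the medians were -0.04 in hexadecimal and 0.25 in decimal libraries for lateral genes, and -0.24 and -0.20 for medial genes. Over all genes they were then -0.003 in hexadecimal and 0.06 in decimal libraries.

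Of 6 enzyme genes that break down monoamines, Maoa had a partial r of 0.91 in hexadecimal and -0.05 in decimal libraries, and the aldose reductase gene Akr1b1 -0.59 and 0.04. The list median was 0.24 in hexadecimal and -0.15 in decimal libraries, beside 0.22 and 0.02 over all genes. Among dopamine receptor genes, Drd2 had -0.59 in hexadecimal and 0.24 in decimal libraries, while Drd1 and Drd5 lay between -0.23 and 0.12.

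Lists of oligodendrocyte precursor, endothelial and astrocyte genes had higher median partial r than all genes in hexadecimal libraries, and lists of microglial and oligodendrocyte genes did so little or not at all. The rise was not particular to these lists. Meningeal fibroblast, circadian clock and interferon response genes had hexadecimal medians of 0.39, 0.31 and 0.30, beside 0.22 over all genes. A partial r of at least 0.5 was seen for 3 of 4 oligodendrocyte precursor genes (median 0.63), 3 of 5 endothelial genes (median 0.61) and 3 of 6 astrocyte genes (median 0.45) in hexadecimal libraries, beside 27.3% of all genes. In decimal libraries 0 of these 15 reached it, beside 3.33% of all genes. The summed level of the precursor genes ran from 189 to 376.5 CPM in hexadecimal and from 234 to 352 CPM in decimal libraries, and its r with the residual was 0.71 and 0.15. The summed endothelial level ran from 205 to 488 CPM in hexadecimal and from 235 to 478 CPM in decimal libraries (r = 0.59 and -0.03), and the summed astrocyte level from 2411 to 9264 CPM and from 2699 to 7610 CPM (r = 0.51 and -0.15). No member of these 3 lists had a median of 0. With the leading component also taken out, the list medians in hexadecimal libraries were 0.18 for precursor, 0.03 for endothelial and -0.25 for astrocyte genes. The median over all genes was then -0.003. Of 6 microglial genes 1 had at least 0.5 in hexadecimal libraries, with a list median of 0.25, against 0 and -0.14 in decimal libraries. Oligodendrocyte genes had a median partial r of 0.04 in hexadecimal and -0.22 in decimal libraries, and cortical and hippocampal neuron genes -0.01 and -0.08. Of 9 GABA neuron genes, Gad2 had 0.90 in hexadecimal and 0.51 in decimal libraries, Nkx2-2 -0.58 and -0.19, and Pvalb -0.56 and 0.18, and the list median was 0.01 and -0.04. The part of other cell types in the Slc6a3 values was not tested.

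Of the 15 other protein-coding genes within 500 kb of Slc6a3, 12 passed the filter on low levels. The nearest fitted neighbours were Lpcat1, 15.7 kb away, a phospholipid enzyme gene with r = 0.70 in hexadecimal and 0.27 in decimal libraries, and Clptm1l, 25.8 kb away. The r of Clptm1l with Slc6a3 was -0.17 in hexadecimal and 0.92 in decimal libraries, while its r with Th was 0.85 in hexadecimal and 0.91 in decimal libraries, and with Slc18a2 0.42 and 0.92. Tert, the telomerase gene 49.3 kb away, had r = 0.57 and 0.38, and Slc12a7, 155.2 kb away, r = 0.32 and 0.21. Farther off, Tppp, a tubulin-binding protein gene, had 0.78 and 0.22, Brd9 0.64 and 0.39, Nkd2 0.65 and 0.08, Trip13 0.12 and -0.02, Irx4 0.17 and 0.13, Cep72 -0.11 and -0.15, Mrpl36 -0.65 and -0.00, and Ndufs6 -0.73 and -0.32. The transporter genes Slc6a18 and Slc6a19, which belong to the same family and lie in the same interval, had medians of 0 CPM in both formats.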

How the data were processed

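Per the labels, polyA RNA of the posterior ventral tegmental area was sequenced, and per the submitters' processing notes the authors used kallisto 0.48. The deposited values are log2 values, taken from the values themselves as log2(estimated count + 1). No genome build of the authors is named in the sources used here. Gene positions in the table are gene ends of GRCr8 for the 38278 genes with a symbol in the RefSeq table. Values were back-transformed, divided by the library total to give CPM and used as log2(CPM + 1). Genes entered with a mean of at least 1 over the 152 libraries (15536 genes).

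Libraries with Th of at least 10 CPM were fitted, hexadecimal against decimal, with limma 3.58.1 (R 4.3.3, trend, Benjamini-Hochberg over all genes). The library with another identifier form was left out of the fits. The level in recovered libraries was tested by permutation (100000 resamples). Partial r values and residuals from Slc18a2 helped choose the gene and are described with no test, including residual tests that had been planned. The limma fit and the partial r were tested on simulated data. Alternatives changed the pseudocount (0.1, 5), scaling, filter, trend, libraries and what was taken out. Named genes are all listed genes, the 15 most positive and 15 most negative by partial r, the 10 most alike by r, genes within 500 kb and the 10 libraries of lowest residual. Some genes that this rule names are not reported here. The 28 lists and the gene itself were chosen with earlier results of these data known. Any gene or measure outside this rule was chosen after its values were seen.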

Additional observations from a re-analysis of the deposited data

Results flagged for a closer look

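The library with another identifier form, which entered no comparison, had 537.9 CPM of Slc6a3, far above the 3 counts that a count of 0 allows. It had 728 CPM of Slc18a2, 2828 CPM of Th and 123 CPM of Chrna6, and with a single library of this form nothing was tested.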

How the results depend on the processing

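The difference of Slc6a3 between formats had the same sign and did not pass under 7 of 8 alternatives (limma adjusted p = 0.259 to 0.481), and with the libraries lacking Th included it was 1.2 (limma adjusted p = 0.0115), for the reason given with that result. At equal Slc18a2 the difference lay on the same side under all 9 alternatives. For the library measures, the r of the residual with the total over both formats, 0.000233, was -0.000485 with a pseudocount of 0.1. In decimal libraries the r with genes detected was 0.0684 without relabelled and recovered libraries, and the r with ribosomal RNA was -0.34 both with Th and with a mean z-score of 7 dopamine genes taken out. The level in recovered libraries did not pass under any of its 4 alternatives.

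Without the 10 libraries of lowest residual, the hexadecimal partial r with Chrna6 was 0.87, the r with Slc18a2 0.82, with Th 0.45, the SD 0.65 and the residual SD 0.38. With the z-score taken out, the hexadecimal residual SD was 0.95 and the partial r with Chrna6 0.98, and with Th taken out 1.05 and 0.98. By Spearman rho the hexadecimal value was 0.80 with Slc18a2 and 0.90 for the partial value with Chrna6, and the decimal value with Th was 0.85. With the leading component taken out, an alternative chosen after seeing the data, hexadecimal r was 0.44 with Th and 0.93 with Chrna6. Genes at a partial r of at least 0.5 then numbered 1303 in hexadecimal and 820 in decimal libraries, and 555 were at most -0.5 in hexadecimal libraries. With median-of-ratios scaling 2950 hexadecimal and 220 decimal genes were at most -0.5. In decimal libraries that number was 84 with the z-score, 32 with Th and 82 by Spearman rho. The cause of these shifts was not tested. No paired analysis was possible because the labels give no replicate number shared between the formats. Depth limits none of the Slc6a3 values in libraries with Th, and in libraries lacking Th it allows no value below 3 counts to be told from 0.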

Other observations

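Genes of the citrate cycle, the mitochondrial pathway that citrate synthase opens, were looked at after Cs led the positive partial correlates, so this list of 17 genes was chosen after its leading value was seen and has no test. In hexadecimal libraries 4 of the 17 had a partial r of at least 0.5 and 2 one of at most -0.5, beside 27.3% and 11.3% of all genes. In decimal libraries 4 and 0 did so, beside 3.33% and 0.94% of all genes. Cs itself is among the 4 in each format. The list medians were -0.06 in hexadecimal and 0.31 in decimal libraries, beside 0.22 and 0.02 over all genes. Sdha, a succinate dehydrogenase subunit gene, had 0.86 in hexadecimal and 0.65 in decimal libraries. Mdh2, a malate dehydrogenase gene, had -0.52 in hexadecimal and 0.38 in decimal libraries. With the leading component also taken out, the list medians were 0.57 in hexadecimal and 0.29 in decimal libraries. Over all genes the medians after the same adjustment were -0.003 in hexadecimal and 0.06 in decimal libraries.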
